A study of Mus musculus with 9 samples.

Results

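The genes described here encode the receptor for lipopolysaccharide (LPS) and the first proteins that relay its signal, read from the RNA of whole lungs of mice whose acute lung injury (ALI) was induced by LPS. They are the 10 rows of the deposited table, out of 52381, whose symbol is Tlr4, Ly96, Cd14, Lbp, Tlr2, Myd88, Irak4, Irak3, Ticam1 or Ticam2, and no symbol occurred more than once. The study compared injured mice that received trimethylamine N-oxide (TMAO), a metabolite formed in the liver from gut bacterial trimethylamine, with injured mice that did not, to learn what TMAO does in the injured lung. There were 5 lungs in the TMAO group and 4 in the LPS-ALI group, each from its own mouse, and every mouse of both groups had LPS injury. The sources used here do not give strain, sex, age, LPS dose and route, TMAO dose or sampling time, and lungs without LPS are not analysed here, so no value below is a response to LPS.

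LPS, the glycolipid of the outer membrane of Gram-negative bacteria, is extracted from bacteria by the LPS-binding protein LBP and passed to CD14. CD14 hands it to the pocket of the protein encoded by Ly96 (MD-2), which is bound to the ectodomain of Toll-like receptor 4 (TLR4). From the cell surface TLR4 signals through MyD88 and the kinase IRAK4 to NF-kB, and from the endosome through the adaptors encoded by Ticam2 (TRAM) and Ticam1 (TRIF) to interferon genes. In the lung the receptor is found on macrophages, neutrophils, endothelium and epithelium, so a level in whole lung adds up many cell types, and fewer cells of a type cannot be told apart from less RNA per cell.

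Total reads are not stated, and the step between low values gave only a rough relative depth. With the deepest library set to 1, it was 0.384 in TMAO replicate 5, 0.623 to 0.685 in the other TMAO libraries and 0.496 to 1 in LPS-ALI libraries. TMAO replicate 5 stood apart, with 8846 genes at an FPKM (fragment number scaled to gene length and library total) of at least 1, against 11158 to 12239 in the other libraries. In the labels LPS-ALI replicates 3 and 4 carry codes that start with X, and the other 7 libraries codes that start with B. Markers of lung were present, with alveolar type 2 cell markers summing to 4869 to 10860 FPKM in TMAO and 1246 to 14461 FPKM in LPS-ALI lungs, the lowest in LPS-ALI replicate 4. The extraction protocol in the labels names platelets, whose 6 markers summed to 18.7 to 27.4 FPKM in TMAO and 31.2 to 75.1 FPKM in LPS-ALI lungs. These sums did not overlap, while those of every other marker list read here did, and among single tested genes 1.48% had no overlap. Itga2b and Gp6 were at 0 in some libraries. Whether these platelet markers take part in any result below was not tested.

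None of the 10 genes differed between TMAO and LPS-ALI lungs beyond the spread between mice. Ticam2 stayed below 1 FPKM in every library and was left out of the test, and 0 of the 9 tested genes passed an adjusted p of 0.05 by limma, where 0% of all 11817 tested genes did. At an unadjusted p under 0.05 the count was again 0 of 9, against 3.35% of all genes (50 higher and 346 lower in TMAO). That balance was not stable, with 356 higher and 441 lower under median-of-ratios scaling and 505 higher and 355 lower without TMAO replicate 5. The smallest unadjusted limma p among them, 0.0934, belonged to Cd14. The groups overlapped in FPKM for all 10 genes, where 1.48% of the tested genes had no overlap, and they also overlapped for all 10 after each library was centred on its median gene, where 3.42% had none. The median tested gene lay 0.17 log2 units lower in TMAO lungs, so differences are given relative to it unless called unshifted. Without TMAO replicate 5 the median tested gene lay 0.05 log2 units higher in TMAO lungs, so the direction of this shift rests on that library. On that scale 3 of the 9 genes lay above the median gene and 6 below, with a median of -0.17, which was -0.01 without TMAO replicate 5.

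The components of the pathway lay at very different levels. FPKM is scaled to gene length, so levels were compared between genes. The annotation that set those lengths is not stated, so such comparisons are rough. In TMAO lungs the order of mean FPKM was Cd14, Myd88, Irak3, Lbp, Ly96, Irak4, Tlr2, Ticam1, Tlr4 and Ticam2, and LPS-ALI lungs had the same order except that Ly96 stood above Lbp. The signalling receptor Tlr4 was thus next to last in both groups, while its co-receptor Cd14 was first. Of neighbours in this order only Tlr4 and Ticam2 had separate ranges in TMAO lungs, but Cd14 exceeded Myd88 and Myd88 exceeded Irak3 in each of the 5 libraries. In LPS-ALI lungs the ranges were separate for Cd14 and Myd88, for Irak3 and Ly96 and for Tlr4 and Ticam2, and the other neighbours overlapped.

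**Figure D1:**
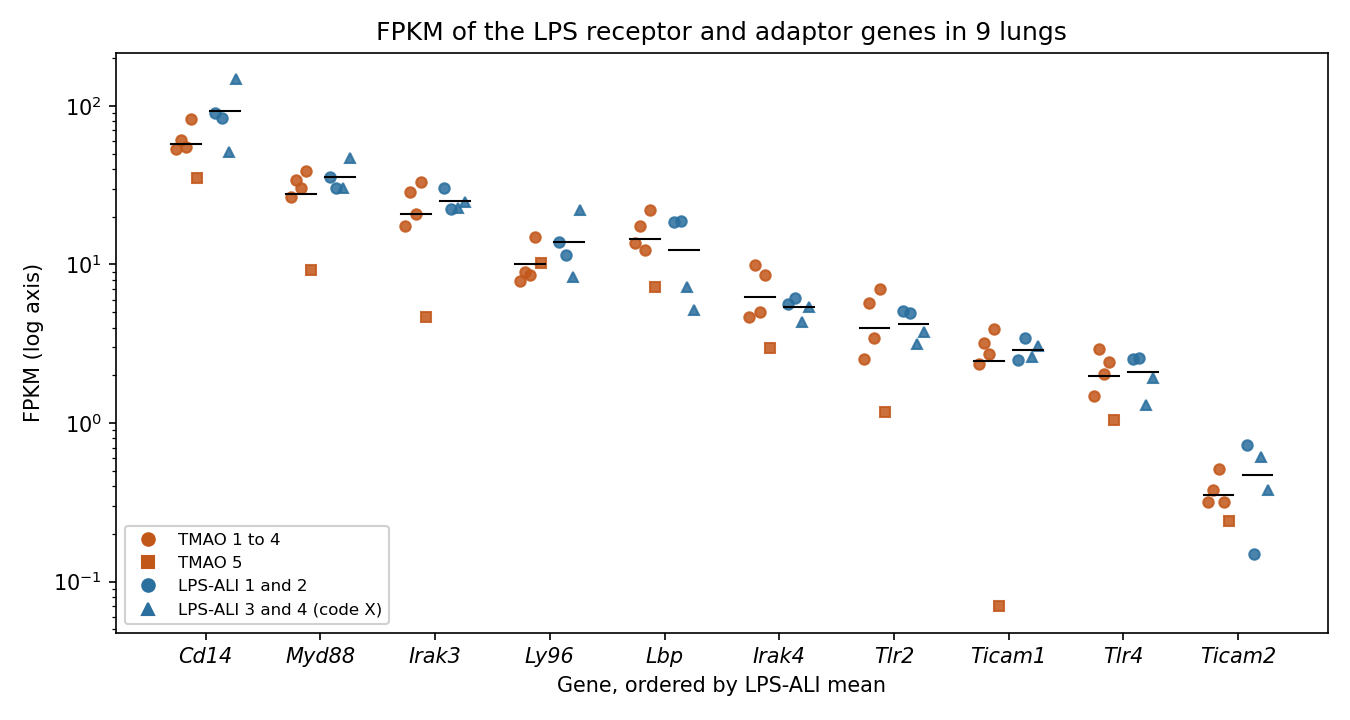
FPKM of the 10 genes (log axis) in each lung, TMAO left and LPS-ALI right of each gene, with a black line at the group mean. The groups overlap for every gene. Cd14 is highest, at 34.8 to 82.9 FPKM in TMAO and 51.3 to 147 FPKM in LPS-ALI lungs. TMAO replicate 5 (square) is the lowest library for 7 genes. With each library centred on its median gene, TMAO replicate 5 is the lowest for 3 genes and the highest for 3.

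Tlr4, which encodes the signalling receptor for LPS, lies on chromosome 4 of GRCm38 from 66827584 to 66930284 on the plus strand. It had 1.49, 2.95, 2.04, 2.42 and 1.04 FPKM in TMAO replicates 1 to 5, against 2.52, 2.59, 1.30 and 1.93 FPKM in LPS-ALI replicates 1 to 4. The lowest values of the groups were those of TMAO replicate 5 and of LPS-ALI replicate 3, and the means were 1.99 ± 0.75 FPKM in TMAO (SD, n = 5) and 2.09 ± 0.60 FPKM in LPS-ALI lungs (SD, n = 4). The relative log2 difference was 0.11, or 0.02 without TMAO replicate 5 and -0.07 without the libraries coded X. With each library centred on its median gene, TMAO replicate 5 was the highest for Tlr4, at -0.71 log2 units. The unshifted difference was -0.06 ± 0.30 (SE), with a 95% interval of -0.71 to 0.59 (limma adjusted p = 0.998, exact two-sided permutation p = 0.794). About 26 to 128 reads lay behind a Tlr4 value, so counting error is part of its spread.

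Ly96 (chromosome 1, 16688051 to 16709611, plus strand) encodes MD-2, the subunit that holds the lipid chains of LPS. Its mean was 10.1 ± 2.81 FPKM in TMAO (SD, n = 5) and 13.95 ± 5.87 FPKM in LPS-ALI lungs (SD, n = 4), and its relative log2 difference was -0.21 (adjusted p = 0.998 by limma). LPS-ALI replicate 4 held the highest value, 22.1 FPKM, and without it the relative difference was -0.02, while without TMAO replicate 5 it was -0.44. Ly96 was the one gene besides Lbp and Ticam2 for which TMAO replicate 5, with 10.2 FPKM, was not the lowest library. Once centred on its median gene, that library was the highest for Ly96, at 1.74 log2 units, ahead of LPS-ALI replicate 4 at 1.55. The Ly96 to Tlr4 ratio within a library was 3.02 to 9.78 in TMAO and 4.41 to 11.4 in LPS-ALI lungs, so transcripts of the lipid-binding subunit outnumbered those of its receptor per length in all 9.

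Tlr2 (chromosome 3, 83836272 to 83841767, minus strand) encodes the receptor for bacterial lipoproteins, which uses the same MyD88 route. It averaged 3.97 ± 2.36 FPKM in TMAO (SD, n = 5) and 4.24 ± 0.95 FPKM in LPS-ALI lungs (SD, n = 4), and its relative log2 difference was -0.03 (adjusted p = 0.998 by limma), or -0.21 without the libraries coded X. TMAO values ran from 1.17 FPKM in replicate 5 to 6.96 FPKM in replicate 4 and enclosed all LPS-ALI values. The Tlr2 to Tlr4 ratio was 1.13 to 2.88 in TMAO and 1.91 to 2.42 in LPS-ALI lungs. The promoter of Tlr2 is shown because this receptor is known to be induced through NF-kB in mouse macrophages. It is the RefSeq window of 300 bases around the start of the gene (chr3:83841559-83841858 of GRCm38.p6, minus strand), with capitals on every match, on either strand, to GGGNNNNNCC, the outline of an NF-kB site:
Tlr2: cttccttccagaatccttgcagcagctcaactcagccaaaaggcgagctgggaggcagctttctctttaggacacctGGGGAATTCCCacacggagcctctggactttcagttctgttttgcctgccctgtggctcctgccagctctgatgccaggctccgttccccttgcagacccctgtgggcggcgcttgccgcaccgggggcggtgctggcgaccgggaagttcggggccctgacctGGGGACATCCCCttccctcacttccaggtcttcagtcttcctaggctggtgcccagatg
The window held a pair of separate capital blocks, each made of overlapping matches. Of all 32851 such windows 50.8% held at least 1 match, so a match is a description of the letters and not of a binding site.

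Cd14 encodes the co-receptor that delivers LPS to TLR4 and MD-2. It lies on chromosome 18 from 36725067 to 36726798 on the minus strand. It had 53.2, 61.2, 54.9, 82.9 and 34.8 FPKM in TMAO replicates 1 to 5, against 90.5, 84.2, 51.3 and 147 FPKM in LPS-ALI replicates 1 to 4. All TMAO values lay below 3 of the 4 LPS-ALI values, while LPS-ALI replicate 3 fell inside the TMAO range. The mean was 57.4 ± 17.3 FPKM in TMAO (SD, n = 5) and 93.2 ± 39.7 FPKM in LPS-ALI lungs (SD, n = 4). The relative log2 difference was -0.48, the most negative of the 9 tested genes, and the unshifted one was -0.65 ± 0.36 (SE) with a 95% interval of -1.41 to 0.12. It did not pass its test (limma adjusted p = 0.998, exact two-sided permutation p = 0.103). Without LPS-ALI replicate 4, which held the highest value, the relative difference was -0.27. Without LPS-ALI replicate 3, the lung inside the TMAO range, it was -0.67 and Cd14 had an unadjusted limma p under 0.05, as it also had with library weights, and its adjusted p was 0.990 and 0.189 in these fits.

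Since TLR4 needs CD14 for smooth LPS, the ratio of the genes within a library was also read, which does not depend on scaling between libraries. The Cd14 to Tlr4 ratio was 35.7, 20.8, 26.9, 34.3 and 33.5 in TMAO replicates 1 to 5, against 35.9, 32.5, 39.5 and 76.1 in LPS-ALI replicates 1 to 4. All but one of the LPS-ALI lungs lay above every TMAO lung, and the exception, replicate 2, lay within the TMAO range. The log2 ratio differed by -0.55, and by -0.27 without LPS-ALI replicate 4. Monocyte and interstitial macrophage markers, whose cells carry CD14, summed to 1308 to 2703 FPKM in TMAO and 532 to 3641 FPKM in LPS-ALI lungs. Neutrophil markers summed to 7859 to 14788 FPKM in TMAO and 7872 to 21158 FPKM in LPS-ALI lungs. Alveolar macrophage markers summed to 66.3 to 246 FPKM in TMAO and 203 to 339 FPKM in LPS-ALI lungs. Only LPS-ALI replicate 1 lay within that TMAO range. Endothelial markers summed to 221 to 913 FPKM in TMAO and 328 to 643 FPKM in LPS-ALI lungs. LPS-ALI replicate 4 combined the highest Cd14 value with the lowest sum of the monocyte list. That list includes Lyz2, and its sum ranked the libraries of each group in the same order as the alveolar type 2 sum. In LPS-ALI replicates 1 to 4 it was 3641, 2828, 1152 and 532 FPKM, against 14461, 12755, 7713 and 1246 FPKM for alveolar type 2 markers. The monocyte sum was not read as a count of monocytes. Neither its link to the alveolar type 2 sum nor the part of any cell type in the Cd14 values was tested.

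Lbp (chromosome 2, 158306493 to 158332852, plus strand) encodes the protein that loads LPS onto CD14. LBP is an acute-phase product of hepatocytes and is also made by alveolar type 2 cells. Its FPKM was 13.7, 17.6, 12.3, 22.0 and 7.20 in TMAO replicates 1 to 5, against 18.5, 18.7, 7.20 and 5.13 in LPS-ALI replicates 1 to 4. The LPS-ALI values fell into a pair at 18.5 and 18.7 and, in the libraries coded X, a pair at 7.20 and 5.13. The relative log2 difference of Lbp was 0.49, the highest of the 9 tested genes, and the unshifted one was 0.32 ± 0.44 (SE, limma adjusted p = 0.998, exact two-sided permutation p = 0.532). Without the libraries coded X the relative difference was -0.20, so its sign rests on them, and without LPS-ALI replicate 4 alone it was 0.13. The same libraries had the lowest alveolar type 2 marker sums of the LPS-ALI group, 7713 and 1246 FPKM, against 14461 and 12755 FPKM in LPS-ALI replicates 1 and 2. The part of that cell type in the Lbp values was not tested. Hepatocyte markers summed to 0.88 to 4.09 FPKM in TMAO and 0.66 to 1.66 FPKM in LPS-ALI lungs, and 5 of the 6, Alb among them, were at 0 in at least 1 library.

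**Figure D2:**
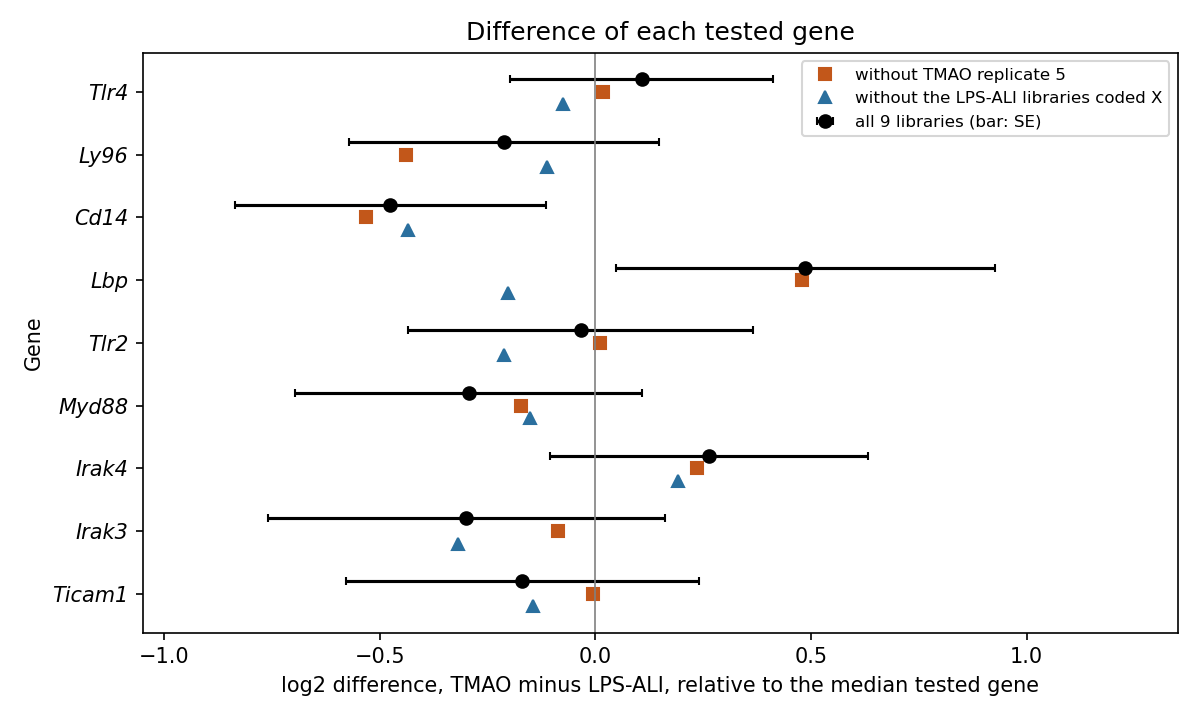
Log2 difference of each of the 9 tested genes, TMAO minus LPS-ALI, relative to the median gene, with all libraries (circles, bars are SE), without TMAO replicate 5 (squares) and without the LPS-ALI libraries coded X (triangles). Values run from -0.48 for Cd14 to 0.49 for Lbp, and Lbp changes to -0.20 without the X libraries.

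Among the adaptors, Myd88 was by far the most abundant. It encodes the adaptor shared by TLR4, TLR2 and the interleukin-1 receptors. Myd88 (chromosome 9, 119335934 to 119341411, minus strand) averaged 27.9 ± 11.3 FPKM in TMAO (SD, n = 5) and 35.8 ± 7.91 FPKM in LPS-ALI lungs (SD, n = 4). TMAO values were 26.8, 34.2, 30.4, 38.7 and 9.21 FPKM, and LPS-ALI values were 35.4, 30.4, 30.1 and 47.0 FPKM. Centred on the median gene of its library, Myd88 ran from 1.61 to 2.12 log2 units in TMAO and from 2.10 to 2.61 in LPS-ALI lungs, which overlapped only between TMAO replicates 2 and 3 and LPS-ALI replicate 2. The relative log2 difference was -0.29, and the unshifted one was -0.46 ± 0.40 (SE, limma adjusted p = 0.998, exact two-sided permutation p = 0.349). Without TMAO replicate 5 the relative difference was -0.17. Exons of Acaa1a on the opposite strand cover 11.3% of the exonic bases of Myd88, and with no strand setting stated reads there cannot be told apart.

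Irak4 encodes the kinase that starts the cascade below MyD88, and Irak3 encodes IRAK-M, a relative without kinase activity that holds the cascade back in macrophages. Irak4 lies on chromosome 15 from 94543643 to 94581815 on the plus strand, and Irak3 on chromosome 10 from 120141648 to 120202130 on the minus strand. Exons of opposite-strand genes cover 7.9% of the exonic bases of Irak4 and 6.0% of those of Irak3. Their RefSeq promoter windows are shown because the ratio of these genes, given next, compares a brake with the kinase it acts on. The windows are chr10:120201548-120201847 (minus strand, 1 of 2 listed for Irak3) and chr15:94543410-94543709 (plus strand) of GRCm38.p6, with GGGNNNNNCC matches in capitals:
Irak3: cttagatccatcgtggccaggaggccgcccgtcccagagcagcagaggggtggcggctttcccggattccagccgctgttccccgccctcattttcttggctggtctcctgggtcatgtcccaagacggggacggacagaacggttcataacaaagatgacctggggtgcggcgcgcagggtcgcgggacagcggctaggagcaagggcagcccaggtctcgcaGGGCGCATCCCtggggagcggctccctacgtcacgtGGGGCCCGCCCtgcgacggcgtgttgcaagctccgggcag
Irak4: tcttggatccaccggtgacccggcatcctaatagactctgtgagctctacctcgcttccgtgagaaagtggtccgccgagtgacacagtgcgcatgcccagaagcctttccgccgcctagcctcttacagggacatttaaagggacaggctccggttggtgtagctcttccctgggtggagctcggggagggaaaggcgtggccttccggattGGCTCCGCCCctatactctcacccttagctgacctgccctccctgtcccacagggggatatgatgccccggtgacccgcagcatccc
The Irak3 window held a pair of capital blocks and the Irak4 window a single match, and the other Irak3 window, which covers the annotated 5′ end of the gene, held none. Of the windows not shown, that of Myd88 held no match and that of Ticam1 a single match. The Myd88 window (chr9:119339969-119340268, minus strand) lies inside the annotated gene and does not cover its 5′ end at 119341411. The Irak3 window also held CACGTG, an E-box found in 7.2% of all windows, which overlaps its second block by a single letter and is not capitalised apart from that.

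Irak3 averaged 20.9 ± 10.95 FPKM in TMAO (SD, n = 5) and 25.1 ± 3.71 FPKM in LPS-ALI lungs (SD, n = 4), and Irak4 averaged 6.22 ± 2.88 FPKM in TMAO and 5.37 ± 0.75 FPKM in LPS-ALI lungs. The relative log2 differences pointed apart, -0.30 for Irak3 and 0.26 for Irak4, and neither passed its test (limma adjusted p = 0.998 for both). Irak3 had 4.68 FPKM in TMAO replicate 5, against 17.6 to 33.0 FPKM in the other TMAO lungs, and without that library its relative difference was -0.09. The Irak3 to Irak4 ratio was 3.75, 2.90, 4.15, 3.85 and 1.57 in TMAO replicates 1 to 5, against 5.42, 3.66, 5.26 and 4.60 in LPS-ALI replicates 1 to 4. The kinase-dead member thus exceeded the kinase per length in all 9 lungs. LPS-ALI replicate 2 was the one LPS-ALI lung within the TMAO range. The log2 ratio was 1.62 ± 0.57 in TMAO (SD, n = 5) and 2.23 ± 0.26 in LPS-ALI lungs (SD, n = 4). Its difference of -0.61 was -0.37 without TMAO replicate 5 and -0.54 without the libraries coded X, and as a ratio picked out among 6 it was not tested.

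Ticam1 encodes TRIF, the adaptor that carries the endosomal TLR4 signal and the TLR3 signal. It lies on chromosome 17 from 56269319 to 56276786 on the minus strand. It had 2.36, 3.19, 2.71, 3.90 and 0.07 FPKM in TMAO replicates 1 to 5, against 2.51, 3.43, 2.60 and 3.07 FPKM in LPS-ALI replicates 1 to 4. All libraries but TMAO replicate 5 lay in the same narrow range, and that library held about 1 read of the gene where the others held about 44 to 92. The means were 2.45 ± 1.45 FPKM in TMAO (SD, n = 5) and 2.90 ± 0.43 FPKM in LPS-ALI lungs (SD, n = 4), and the relative log2 difference was -0.17 (adjusted p = 0.998 by limma), or -0.01 without TMAO replicate 5. With a pseudocount of 0.1 it was -0.55, and with median-of-ratios scaling -0.33.

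The Ticam1 to Myd88 ratio compares the entry points of both arms of TLR4 signalling. It was 0.0881, 0.0933, 0.0892, 0.101 and 0.0076 in TMAO replicates 1 to 5, against 0.0709, 0.113, 0.0863 and 0.0653 in LPS-ALI replicates 1 to 4. Apart from TMAO replicate 5 the TMAO ratios lay inside the LPS-ALI range. Ticam2 (chromosome 18, 46557291 to 46574533, minus strand) encodes TRAM, which bridges TLR4 and TRIF. It was the lowest of the 10 genes, with 0.24 to 0.51 FPKM in TMAO and 0.15 to 0.73 FPKM in LPS-ALI lungs, or about 6 to 42 reads. The exact two-sided permutation p of Ticam2 was 0.468. Exons of Tmed7 on the same strand cover 14.5% of its exonic bases, and the sources used here do not say how reads there were assigned.

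**Figure D3:**
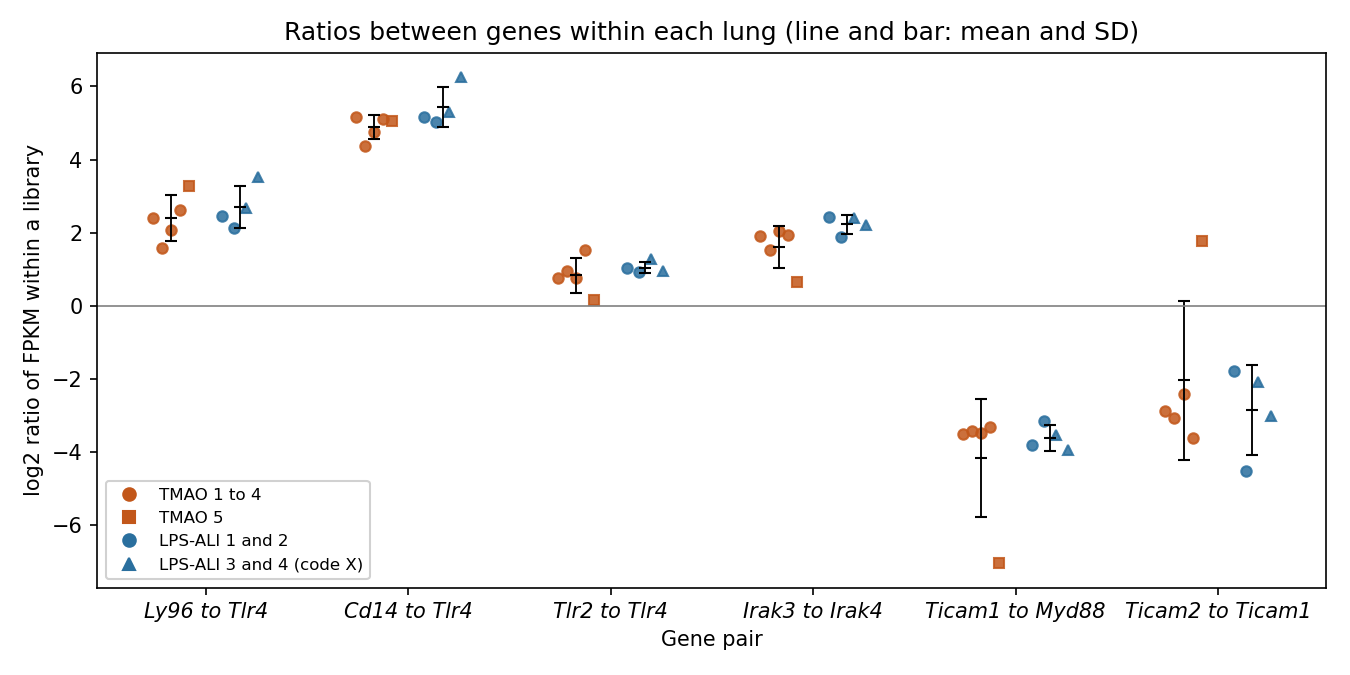
Log2 ratio of FPKM for 6 gene pairs within each lung, TMAO left and LPS-ALI right, with the mean and SD. Irak3 to Irak4 averages 1.62 in TMAO and 2.23 in LPS-ALI lungs with overlapping values, and Ticam1 to Myd88 in TMAO replicate 5 is far below the others at -7.04.

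Other genes of the pathway were read from 5 lists of 58 genes in all, of which 48 were tested. By limma 0 of these 48 passed the adjusted threshold and 0 had an unadjusted p under 0.05, as against 0% and 3.35% of all genes. Their median relative log2 difference was -0.11, with 15 above and 33 below the median gene. The 5 tested members of the list of other Toll-like receptors and their relatives all lay below the median gene, with a median of -0.24. Among these, Ly86, which encodes the MD-1 partner of the receptor homologue RP105, had 3.48 ± 0.45 FPKM in TMAO (SD, n = 5) and 5.01 ± 1.15 FPKM in LPS-ALI lungs (SD, n = 4). Tlr7, a receptor for single-stranded RNA, had 1.74 ± 1.16 FPKM in TMAO and 3.53 ± 3.56 FPKM in LPS-ALI lungs, where replicate 4 alone held 8.84 FPKM and the others 1.32 to 2.28 FPKM. Tlr13, a receptor for bacterial ribosomal RNA in mice, had 3.49 ± 1.43 FPKM in TMAO and 4.79 ± 0.95 FPKM in LPS-ALI lungs. Tlr1, the partner of TLR2, had 1.30 ± 0.51 FPKM in TMAO and 2.20 ± 1.36 FPKM in LPS-ALI lungs, with 4.05 FPKM in LPS-ALI replicate 3. Of the TMAO lungs, replicate 5 was lowest for Tlr7, Tlr13 and Tlr1, at 0.05, 1.71 and 0.55 FPKM.

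The next list held 18 genes for kinases, ubiquitin ligases and their partners, and included the adaptor gene Tirap. All were tested, with 5 above and 13 below the median gene and a median of -0.11. Tirap had a relative difference of 0.15. Ikbke, for the IKK-epsilon kinase of the interferon arm, had 9.26 ± 5.35 FPKM in TMAO (SD, n = 5) and 15.4 ± 3.23 FPKM in LPS-ALI lungs (SD, n = 4). The ubiquitin-conjugating gene Ube2n had 52.6 ± 14.3 FPKM in TMAO and 73.1 ± 16.4 FPKM in LPS-ALI lungs. Ikbkb, for a catalytic subunit of the IKK complex, had 21.95 ± 8.72 FPKM in TMAO and 29.5 ± 14.3 FPKM in LPS-ALI lungs, with 50.7 FPKM in replicate 4. Irak2, a kinase-related partner of IRAK4, had 7.37 ± 4.41 FPKM in TMAO and 9.28 ± 2.78 FPKM in LPS-ALI lungs. The lowest values of Ikbke, Ube2n, Ikbkb and Irak2 were those of TMAO replicate 5, at 2.09, 31.1, 8.60 and 1.80 FPKM. In receptor folding and trafficking 4 of 6 genes lay below the median gene, with a median of -0.08. Unc93b1, the escort of the endosomal Toll-like receptors, had 7.91 ± 4.04 FPKM in TMAO and 10.8 ± 3.14 FPKM in LPS-ALI lungs. Its lowest value, 2.26 FPKM, was that of TMAO replicate 5. The TLR4 chaperone genes Hsp90b1 and Cnpy3 had relative differences of -0.21 and -0.08, and Tmed7, a cargo receptor, had -0.07.

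Brakes on the pathway were divided evenly, with 5 of 10 tested genes on each side of the median gene and a median of -0.02. Tnip1, a partner of A20, had 45.2 ± 26.9 FPKM in TMAO (SD, n = 5) and 78.9 ± 43.7 FPKM in LPS-ALI lungs (SD, n = 4), where replicate 4 alone held 144 FPKM. Tnfaip3, which encodes A20, had 11.6 ± 5.76 FPKM in TMAO and 17.4 ± 5.73 FPKM in LPS-ALI lungs. Socs1, an inhibitor of cytokine receptor kinases, was the single gene of the 48 with no overlap in FPKM, at 0.71 to 1.31 in TMAO and 1.38 to 2.37 in LPS-ALI lungs, against 1.48% of all genes, and it overlapped once centred on the median gene. The phosphatase gene Ptpn6 had 23.7 ± 11.4 FPKM in TMAO and 30.9 ± 7.19 FPKM in LPS-ALI lungs. Tnip1, Tnfaip3 and Ptpn6 were lowest in TMAO replicate 5, at 7.22, 3.63 and 6.01 FPKM.

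The last list held other proteins that bind or degrade LPS or amplify the response to it. Here 3 of 9 tested genes lay above and 6 below the median gene, with a median of -0.10, and Bpi was listed at 0 in every library. Casp4, which encodes caspase-11, the cytosolic LPS sensor of mice, had 18.5 ± 6.74 FPKM in TMAO (SD, n = 5) and 32.7 ± 15.2 FPKM in LPS-ALI lungs (SD, n = 4). LPS-ALI replicate 4 held its highest value, 54.8 FPKM, as it did for Cd14, Ly96 and Myd88. Trem1, the amplifier receptor of neutrophils and monocytes, had 5.31 ± 2.51 FPKM in TMAO and 7.98 ± 1.92 FPKM in LPS-ALI lungs. Itgam, an integrin chain of myeloid cells, had 16.9 ± 10.3 FPKM in TMAO and 20.7 ± 1.94 FPKM in LPS-ALI lungs. Casp4 and Itgam were lowest in TMAO replicate 5, at 7.34 and 2.28 FPKM. The other TMAO lungs had 13.9 to 30.7 FPKM of Itgam. Cd36, a scavenger receptor of macrophages and capillary endothelium, had 230, 294, 138, 406 and 71.8 FPKM in TMAO replicates 1 to 5, against 247, 278, 65.5 and 18.7 FPKM in LPS-ALI replicates 1 to 4. Its low LPS-ALI values were those of the libraries coded X, the pattern also shown by Lbp.

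**Figure D4:**
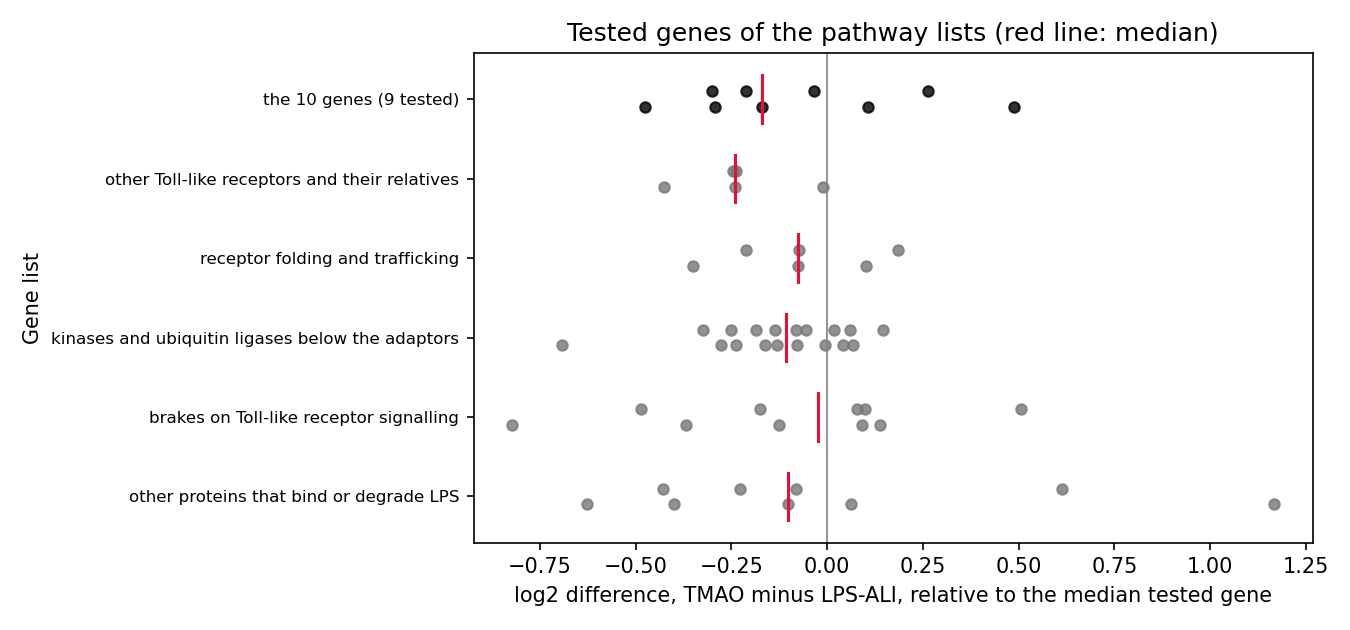
Relative log2 difference, TMAO minus LPS-ALI, of the tested members of the 10 genes (black) and of 5 pathway lists (grey), with a red line at each median. Medians lie between -0.24 and -0.02, and no gene passed its test.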

How the data were processed

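RNA sequencing of lung gave 9 libraries. Per the labels' protocols, ribosomal RNA was depleted from total RNA and NEBNext Ultra II libraries were made. The build mm10 and the tools fastp, HISAT2, SAMtools and featureCounts are named, per the submitters' processing notes, without role or version. The annotation and strand setting are not stated. FPKM, rounded to 2 decimals, is the unit the authors deposited, with 1 column per library.

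The 11817 genes that reached 1 FPKM in 4 or more libraries were tested with limma 3.58.1 (R 4.3.3, mean-variance trend) on log2(FPKM + 1), a scale on which the change of low genes is understated. Tests were two-sided and p-values were Benjamini-Hochberg adjusted over these genes. Single genes also had an exact two-sided permutation test over the 126 assignments of the group labels, whose smallest p is 0.00794. Lists were given no set test. The 10 genes, the lists and the tests were chosen with earlier results of these data known. Named genes are the 10 members and up to 4 of each list with the smallest p. Bpi is named for its values of 0, and Tirap as an adaptor within a list.

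Relative depth came from the commonest ratio of low values between libraries, which 31 of 36 pairs met within 0.1 log2 units. The value of 1 read was then found with exon lengths of GENCODE M21 (GRCm38, the assembly of mm10), matched by 52125 of 52381 identifiers. Of the low values 43.3% came within 0.15 of a whole read, where evenly spread values would give 30%, so read numbers are rough and no counting interval is given. Same-numbered mice are not said to be related, and their deviations correlated at -0.13 to 0.06. Promoter windows are RefSeq's (GRCm38.p6). For the 10 genes, windows on chromosome 18, where Cd14 and Ticam2 lie, were left out, and 5 of the 10 genes had a window among the rest. Tables and figures used Python 3.11.15, pandas 2.3.3 and matplotlib 3.10.9.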

Additional observations from a re-analysis of the deposited data

Results flagged for a closer look

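The ratio of Ticam1 to Myd88 in TMAO replicate 5 stood far from the other TMAO libraries. Its log2 value was -7.04, against -3.50 in the nearest of the others, a gap of 0.948 of the group's range. The log2 ratio of Ticam2 to Ticam1 in the same library was 1.78, against -2.41 in the nearest, a gap of 0.778 of the range. Both follow from the 0.07 FPKM of Ticam1 there, about 1 read. A total of 32 groups of values was examined in this way, and chance marks about 1 group in 20. The depth of this library is the lowest of the 9, and its part in the value was not tested.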

How the results depend on the processing

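No member's call changed in the 21 alternatives, which left 0 of the tested members past an adjusted p of 0.05. The median relative difference of the members, -0.17, ran from -0.23 without LPS-ALI replicate 1 to -0.01 without TMAO replicate 5. With library weights, which gave TMAO replicate 5 a weight of 0.0879, 51 genes in all passed, and leaving out single libraries gave 0 to 3, of which 3 came when TMAO replicate 4 was left out and 1 without LPS-ALI replicate 3. The unshifted difference of Tlr4 was 0.0777 with median-of-ratios scaling, 0.0966 with quantile normalization, 0.00648 without mitochondrial genes and 0.0486 with TMAO replicate 5 and LPS-ALI replicate 4 both left out. That last setting also gave 0.0177 for Tlr2, 0.0137 for Myd88 and 0.0643 for Ticam1. Lbp turned to -0.16 with library weights and to -0.42 without the X-coded libraries, where Irak4 was -0.0217. Leaving out single libraries gave -0.196 to 0.066 for Tlr4, -0.41 to 0.0588 for Tlr2, -0.507 to 0.042 for Ticam1 and -0.077 to 0.285 for Irak4. The replicate block, over mice 1 to 4 of each group, called 0 genes. It also leaves out TMAO replicate 5, so its differences equal those without that library. They were 0.066 for Tlr4, 0.0588 for Tlr2 and 0.042 for Ticam1. The cause of these changes of sign was not tested. A mean FPKM of at least 5 left Tlr4, Tlr2 and Ticam1 without a value. Read numbers were low for Ticam2, at about 6 to 42, and for Ticam1 in TMAO replicate 5, at about 1.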
